A study of Mus musculus with 6 samples.

Results

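The miRNAs described here are both arms of miR-221, miR-222 and miR-31: mmu-miR-221-3p, mmu-miR-221-5p, mmu-miR-222-3p, mmu-miR-222-5p, mmu-miR-31-5p and mmu-miR-31-3p. They were chosen by name, as miRNAs of smooth muscle that respond to growth factors, and are 6 of the 1573 rows of known mouse miRNAs in the deposited count table. All 6 were among the 616 miRNAs that passed the filter on low counts. The libraries came from primary peritubular myoid (PTM) cells, the smooth muscle-like layer around the seminiferous tubules, isolated from testes of C57BL/6J mice and grown with 10% serum. One group was left untreated (n = 3 libraries) and the other received 50 nM endothelin-1 (ET1), a vasoconstrictor peptide, for 5 min at 37 °C (n = 3 libraries). Both groups shared strain, cell type and culture. The series asks how ET1 changes the small RNAs of these cells. Whether the libraries of a group came from separate cultures or animals is not stated, so each p-value reflects variation among these libraries alone, and that variation may be technical.

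A miRNA hairpin is cut into a 5p and a 3p arm, of which one is usually loaded into Argonaute and kept while the other decays. miR-221 and miR-222 are made from a shared X-linked transcript and lower the cell cycle inhibitor gene Cdkn1b and the receptor gene Kit. In vascular smooth muscle, platelet-derived growth factor induces miR-221, and cells with more of it divide more and express fewer contractile genes. miR-31 lowers Lats2, a kinase gene of the Hippo pathway, and is also known for promoting growth of vascular smooth muscle.

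Mature sequences (RefSeq, GRCm38.p6) were found for 5 of the 6 arms and are given 5′ to 3′, with the seed, bases 2 to 8, in capitals. They are shown because the seed sets which transcripts an arm can bind, and the guide arms of the X-linked pair share it.

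miR-221-3p: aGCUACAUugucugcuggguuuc

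miR-222-3p: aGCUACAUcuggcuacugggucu

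miR-221-5p: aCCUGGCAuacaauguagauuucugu

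miR-31-5p: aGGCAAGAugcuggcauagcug

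miR-31-3p: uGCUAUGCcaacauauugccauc

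The 5 arms carry 4 different seeds. miR-221-3p and miR-222-3p are identical over their first 8 bases and then part, the first difference being U9C, with the base of miR-221-3p first and positions counted from the 5′ end. Compared without gaps they match at 11 of 23 positions. Their tags can therefore be told apart by sequence, although they share a seed. miR-1928 has the same seed in RefSeq but no row among the deposited counts, so no level can be given for it. The arms of miR-31 share a seed neither with each other nor with the X-linked pair.

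The hairpins show where the arms lie, with each arm that has an entry in capitals. Mir221 (chrX:19146294-19146388, minus strand) and Mir222 (chrX:19146893-19146971, minus strand) are separated by 504 bases, and GENCODE M21 has no other gene over either of them. Mir31 (chr4:88910557-88910662, minus strand) lies within exon 3 of the lincRNA gene AL805899.1 on the same strand.

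Mir221: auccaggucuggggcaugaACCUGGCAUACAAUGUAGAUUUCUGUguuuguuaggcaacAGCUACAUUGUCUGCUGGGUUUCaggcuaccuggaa

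Mir222: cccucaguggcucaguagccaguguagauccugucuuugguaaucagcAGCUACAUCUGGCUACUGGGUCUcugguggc

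Mir31: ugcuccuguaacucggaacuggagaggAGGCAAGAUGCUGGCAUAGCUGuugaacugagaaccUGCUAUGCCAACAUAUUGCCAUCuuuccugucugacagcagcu

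The libraries held 18127265 to 20895432 tags. Known miRNAs made up 30.1% to 45.6% of the tags of untreated libraries and 22.6% to 25.5% of those of ET1 libraries, while rRNA fragments made up 3.22% to 5.63% and 7.12% to 11.02%. All 9 mesenchymal marker miRNAs found were detected in each library, with a summed level of 90882 to 113883 CPM (tag counts scaled to known miRNA tags, then by TMM, as are the marker sums that follow) in untreated and 71149 to 79910 in ET1 libraries. Without TMM these sums overlapped, at 86779 to 92933 and 76819 to 91892 CPM. Markers of other cells were present as well. The endothelial pair of miR-126a arms summed to 1107 to 1884 CPM in untreated and 114 to 163 CPM in ET1 libraries, and 4 tested leukocyte markers to 2462 to 5305 and 1122 to 2192 CPM (2351 to 4329 and 1211 to 2521 without TMM, which overlapped), with miR-142a-3p and miR-142a-5p at 0 tags in at least 1 library. miR-126a-3p fell from 1602 ± 433 to 131 ± 25.8 CPM (edgeR adjusted p = 0.00019). miR-150-5p, a lymphocyte miRNA, fell from 270.5 ± 51.2 to 24.7 ± 4.59 CPM (edgeR adjusted p = 0.00036). Of the 4 tested leukocyte markers, 3 had a negative log2 fold change. The other, miR-223-3p, was at 0.29 (edgeR adjusted p = 0.85). The 7 tested epithelial and Sertoli markers summed to 1028 to 1672 and 711 to 2035 CPM, and the red cell marker tested, miR-451a, to 48.9 to 673 and 38.1 to 301 CPM. The red cell markers miR-144-3p and miR-144-5p were not tested, at 0 to 10 and 0 to 1 tags per library. The 7 tested germ cell markers summed to 509 to 1347 CPM in untreated and 1075 to 4912 CPM in ET1 libraries, the highest value being in ET1 library 1. In bulk RNA, fewer cells of a type and less RNA per cell cannot be told apart.

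Levels below are TMM-scaled CPM, TMM being a correction that aligns the bulk of the miRNAs between libraries, and means carry the SD of 3 libraries. Fold changes and adjusted p-values are from edgeR's quasi-likelihood test over all 616 miRNAs. None of the 6 arms passed (edgeR adjusted p from 0.49 to 0.89), none had an unadjusted p under 0.05, and none passed in DESeq2 or limma-voom. Over all 616 miRNAs 11 passed, or 1.79%, with 8 higher and 3 lower (38 and 3 with library sizes alone in place of TMM). In none of the 6 were the groups separate, against 23.5% of the miRNAs tested. The median log2 fold change of the 6 arms was 0.19, beside 0.0058 over all miRNAs tested. Of the 6 values 5 were above 0, beside 311 of all 616, and arms of 1 hairpin or transcript are not independent.

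miR-222-3p, a guide arm and the most abundant of the 6, ranked 37 of 616 by its mean, between miR-574-5p and miR-351-5p. It stood at 3886, 3646 and 3713 CPM in untreated libraries 1, 2 and 3, and at 5933, 3193 and 3733 CPM in ET1 libraries 1, 2 and 3. The untreated libraries lay close together, whereas ET1 library 1 was above all of them and ET1 library 2 below all of them. Without TMM, ET1 library 2 was at 3447 CPM, within the untreated range of 2975 to 3545 CPM. The means were 3748 ± 124 CPM untreated and 4286 ± 1451 CPM with ET1 (log2 fold change 0.19, SE 0.33, 95% interval −0.51 to 0.90, edgeR adjusted p = 0.81). Without ET1 library 1 the log2 fold change was −0.14. The difference was smaller than the spread between ET1 libraries.

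miR-221-3p, the guide arm that shares its seed and its transcript, ranked 72 of 616, between miR-23b-5p and miR-532-5p. Its values were 1044, 1304 and 615 CPM in untreated libraries 1, 2 and 3, and 1697, 709 and 849 CPM in ET1 libraries 1, 2 and 3. The groups overlapped widely, the highest library being ET1 library 1 and the lowest untreated library 3. The means were 988 ± 348 CPM untreated and 1085 ± 534 CPM with ET1 (log2 fold change 0.14, SE 0.42, 95% interval −0.76 to 1.03, edgeR adjusted p = 0.89). The sign changed with single libraries: the log2 fold change was −0.38 without ET1 library 1, −0.096 without untreated library 3, and 0.38 without untreated library 2.

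miR-31-5p, the guide arm of miR-31, ranked 81 of 616, between miR-126a-3p and miR-365-2-5p, and had the largest log2 fold change of the 6 arms. It stood at 946, 481 and 540.4 CPM in untreated libraries 1, 2 and 3, and at 1082, 775 and 992 CPM in ET1 libraries 1, 2 and 3. Of the untreated libraries, the first lay within the range of the ET1 libraries and the other two lay below it. The means were 656 ± 253 CPM untreated and 950.0 ± 158 CPM with ET1 (log2 fold change 0.53, SE 0.37, 95% interval −0.27 to 1.34, edgeR adjusted p = 0.49). Without untreated library 1 the log2 fold change was 0.90 and without untreated library 2 it was 0.34, neither past the threshold.

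**Figure D1:**
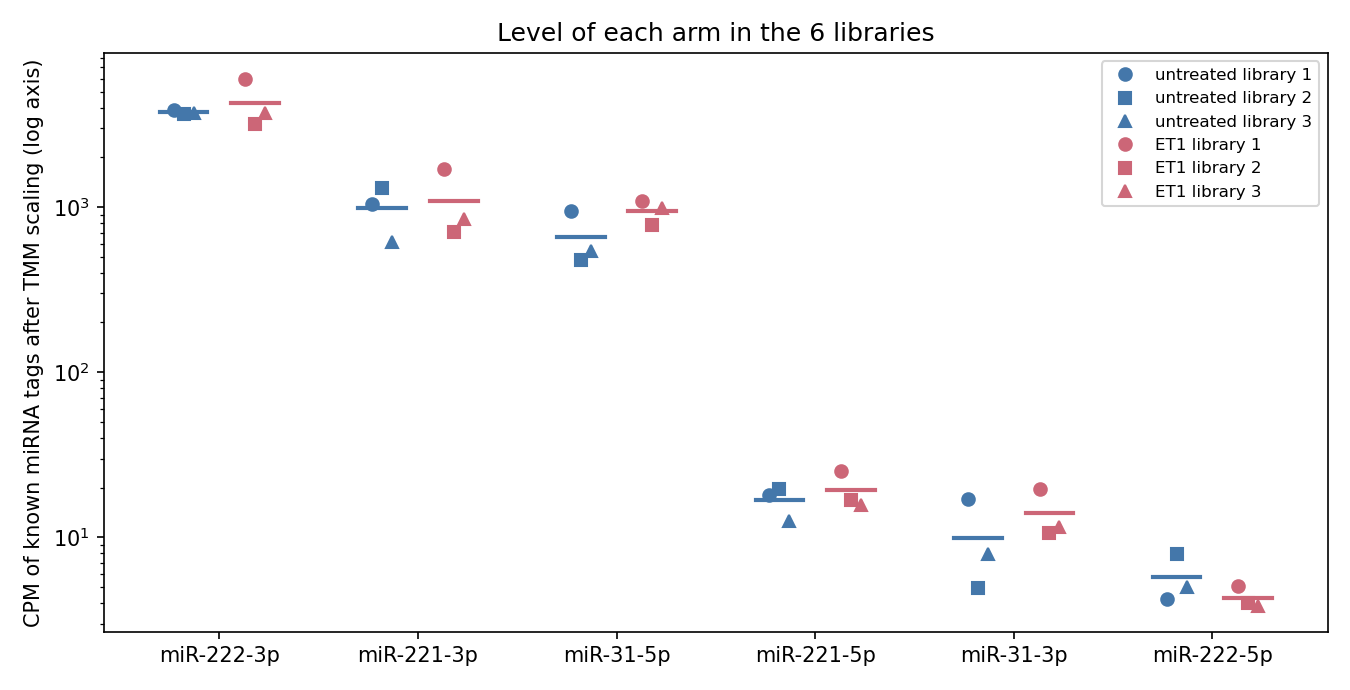
TMM-scaled CPM (log axis) of each arm. Points are libraries, with the library number as the marker shape, and bars are group means of 3 libraries. ET1 library 1 is the highest of the 6 for every arm except miR-222-5p, and the groups overlap for all 6 arms.

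The remaining arms are the passengers, which were counted far less often: miR-221-5p ranked 336 (between miR-344-3p and miR-29b-2-5p), miR-31-3p 381 (between miR-12182-3p and miR-379-3p) and miR-222-5p 471 (between miR-5119 and miR-381-5p). miR-221-5p stood at 18.1, 19.7 and 12.6 CPM in untreated libraries 1, 2 and 3, and at 25.2, 16.9 and 15.6 CPM in ET1 libraries 1, 2 and 3 (log2 fold change 0.20, 95% interval −0.76 to 1.15, edgeR adjusted p = 0.86). As for its guide arm, ET1 library 1 was highest and untreated library 3 lowest. Without ET1 library 1 its log2 fold change was −0.073.

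miR-31-3p stood at 17.1, 4.96 and 7.89 CPM in untreated libraries 1, 2 and 3, and at 19.7, 10.6 and 11.6 CPM in ET1 libraries 1, 2 and 3 (log2 fold change 0.48, 95% interval −0.63 to 1.60, edgeR adjusted p = 0.68). The order of the untreated libraries was that of its guide arm, with library 1 highest and library 2 lowest. Its log2 fold change was 1.13 without untreated library 1, 0.15 without untreated library 2 and 0.12 without ET1 library 1. miR-222-5p was the only one of the 6 with a negative value. It stood at 4.23, 7.93 and 5.03 CPM in untreated libraries 1, 2 and 3, and at 5.07, 4.02 and 3.86 CPM in ET1 libraries 1, 2 and 3 (log2 fold change −0.41, 95% interval −1.44 to 0.62, edgeR adjusted p = 0.71). It rested on 19 to 56 tags per library, and without untreated library 2 it was at −0.11.

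**Figure D2:**
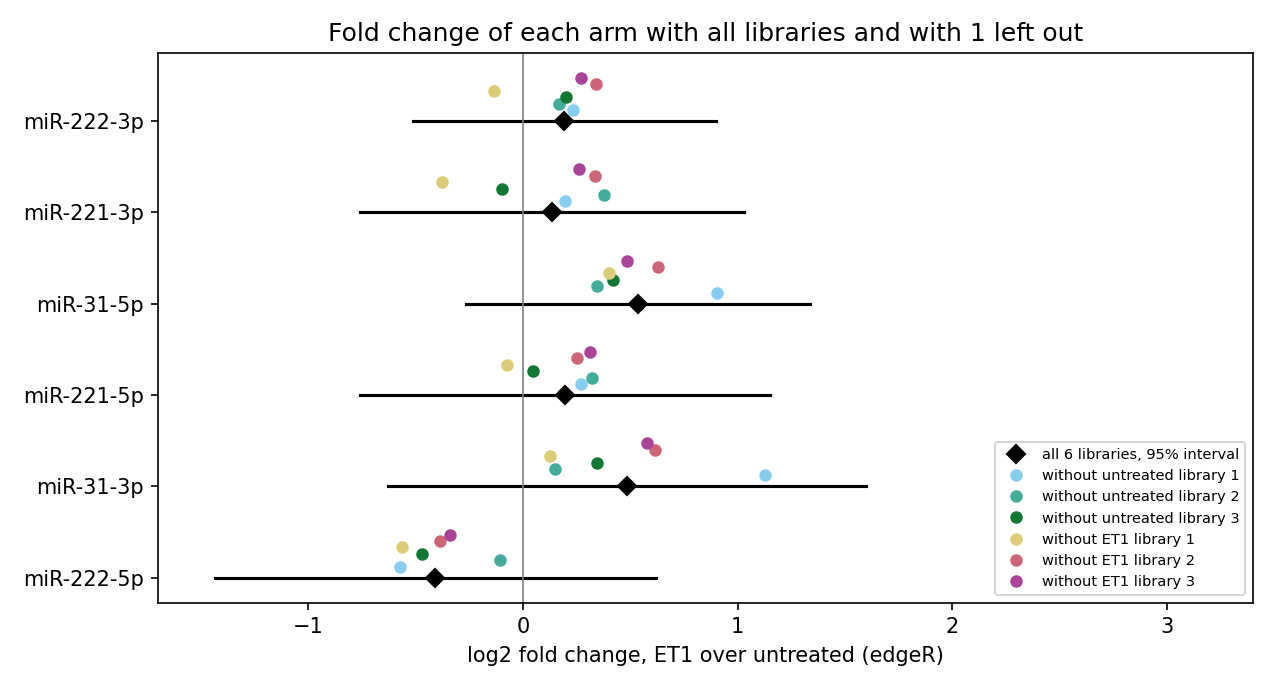
Log2 fold change of ET1 over untreated for each arm in edgeR. Diamonds and lines are the value and 95% interval with all 6 libraries, and coloured points are the values with 1 library left out. All 6 intervals include 0, and without ET1 library 1 the values of miR-222-3p, miR-221-3p and miR-221-5p fall below 0.

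By level the arms formed a group of 3 guides and a group of 3 passengers. miR-222-3p was above miR-221-3p in 6 of 6 libraries, whereas miR-221-3p was above miR-31-5p in only 4 of 6, so the order of that pair was not beyond the spread. miR-31-5p was above miR-221-5p in 6 of 6 libraries, miR-221-5p above miR-31-3p in 6 of 6, and miR-31-3p above miR-222-5p in 5 of 6. These are tag levels, and the efficiency of cloning of each sequence was not tested. Of the tags of all 6 arms, miR-222-3p held 65.7% to 75.9%, miR-221-3p 12.6% to 23.9% and miR-31-5p 8.80% to 17.7% in a library. The 6 arms together held 0.477% ± 0.0364 of known miRNA tags in untreated and 0.726% ± 0.256 in ET1 libraries, and ET1 library 1, at 1.01%, was the highest. The difference of 0.249 percentage points was 0.108 without ET1 library 1.

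The ratio of arms within a library does not depend on how libraries are scaled to each other. The 5p arm gave 1.73% ± 0.26 of miR-221 tags in untreated and 1.87% ± 0.437 in ET1 libraries (n = 3 each; exact permutation p = 0.7, two-sided, adjusted 1 over 5 quantities). The lowest library was ET1 library 1 at 1.46% (Wilson 95% interval 1.24 to 1.73) and the highest ET1 library 2 at 2.33% (1.88 to 2.89). Both the lowest and the highest share were thus found among ET1 libraries.

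The 5p arm of miR-222 was rarer, at 0.154% ± 0.0564 of its tags in untreated and 0.105% ± 0.0201 in ET1 libraries (n = 3 each; exact permutation p = 0.2, two-sided, adjusted 0.5). Untreated library 2 was highest at 0.217% (Wilson 95% interval 0.167 to 0.282) and ET1 library 1 lowest at 0.0854% (0.0587 to 0.124). The group difference, −0.0490 percentage points, was smaller without untreated library 2 (for the 3p share, 0.0173 in place of 0.0490). miR-31 had its 3p arm as passenger, at 1.41% ± 0.377 of its tags in untreated and 1.43% ± 0.326 in ET1 libraries (n = 3 each; exact permutation p = 0.9, two-sided, adjusted 1). These intervals cover counting error only, and 3 libraries against 3 cannot give an exact p below 0.1.

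miR-222-3p outnumbered miR-221-3p 3.72, 2.80 and 6.03 times in untreated libraries 1, 2 and 3, and 3.50, 4.50 and 4.396 times in ET1 libraries 1, 2 and 3. The ET1 libraries lay within the range of the untreated ones. The mean ratio was 4.18 ± 1.67 untreated and 4.13 ± 0.553 with ET1 (n = 3 each; exact permutation p = 1, two-sided, adjusted 1 over 5 quantities). Without untreated library 3 the difference of the ratios, ET1 minus untreated, was 0.873, and without untreated library 2 it was −0.745, in place of −0.0516.

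**Figure D3:**
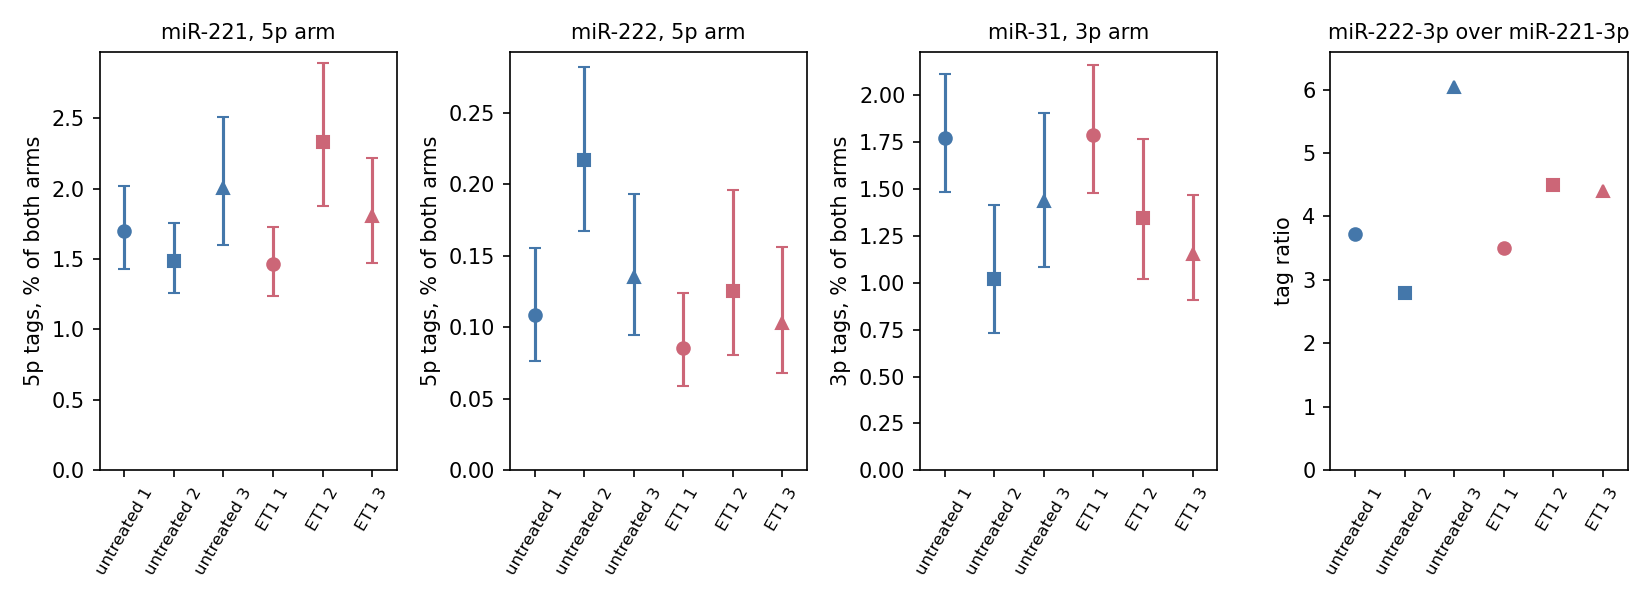
The first 3 panels give the passenger arm as a percentage of the tags of both arms in each library, with Wilson 95% intervals for counting error. The last panel gives the tag ratio of miR-222-3p to miR-221-3p, which runs from 2.80 to 6.03 in untreated libraries and from 3.50 to 4.50 in ET1 libraries.

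Between untreated libraries the log2 CPM of miR-221-3p spanned 1.08 and that of miR-222-3p 0.092. The SD of miR-222-3p was 3.30% of its mean in untreated libraries, where the miRNAs within 50 ranks of it had a median of 27.2%, and 33.9% in ET1 libraries, where they had a median of 19.7%. The untreated spread of miR-222-3p was larger on other scales: without TMM it was at 3305 ± 295 CPM, and in deposited RPM at 1247 ± 156 (SD, n = 3). The spread of its neighbours in rank was not computed on those scales. For miR-221-3p the first figures, with TMM, were 35.2% (median of neighbours 24.5%) and 49.3% (29.5%). For miR-31-5p they were 38.6% (26.3%) in untreated and 16.6% (30.1%) in ET1 libraries. Counting error accounts for 0.631% to 1.5% at these tag counts, so the spread between libraries sets the precision of the guide arms. For the passengers counting error alone was 9.37% to 21.0%.

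Likeness of pattern was measured as the root mean square difference of log2 CPM over the 6 libraries, each miRNA centred on its own mean, among miRNAs of at least 100 CPM. Nearest to miR-222-3p was miR-15b-5p, of the miR-15/16 family that restrains the cell cycle, at 0.11, where the median over 182 miRNAs was 0.59. miR-15b-5p stood at 2807, 2482 and 2520.2 CPM in untreated and at 3731, 2071 and 2933 CPM in ET1 libraries 1, 2 and 3. Its order of high and low ET1 libraries was that of miR-222-3p. Next came miR-337-5p at 0.20, miR-181b-5p at 0.22, miR-411-5p at 0.24 and miR-154-5p at 0.26.

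miR-221-3p itself was the 16th nearest to miR-222-3p, at 0.34, and miR-31-5p the 32nd, at 0.39. Nearest to miR-31-5p were miR-485-5p at 0.23, miR-700-3p at 0.25 and miR-199a-5p at 0.25, where the median was 0.72. All these values share the same 6 libraries and their scaling, and are descriptions.

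**Figure D4:**
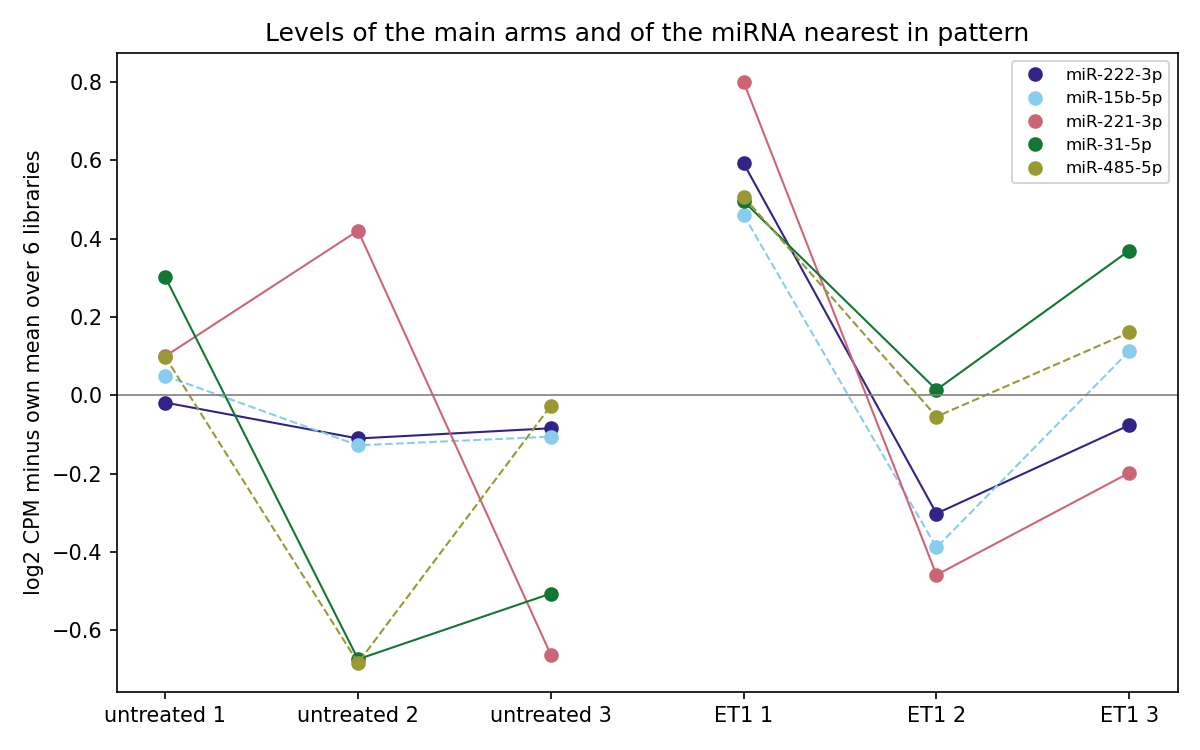
Log2 CPM minus the mean of each miRNA over the 6 libraries, for the guide arms and for the miRNA nearest in pattern to miR-222-3p (miR-15b-5p) and to miR-31-5p (miR-485-5p). Lines join the libraries of a group and imply no order. miR-222-3p spans 0.092 between untreated libraries and miR-221-3p 1.08, while all 5 are at their highest in ET1 library 1.

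The direction of 4 of the 6 arms depended on what the tags were scaled to, while miR-31-5p was positive and miR-222-5p negative in each of 3 scalings. With known miRNA tags alone as the library size, the median of the 616 log2 fold changes was 0.37, and miR-222-3p, miR-221-3p and miR-31-5p were at 0.57, 0.54 and 0.91. With all named small RNA rows in the fit the median, over the 617 known miRNAs tested there, was −0.46 and the same arms were at −0.31, −0.44 and 0.030. Relative to the median, miR-222-3p was at 0.19 with TMM and with known miRNA tags alone, and at 0.15 with all rows. miR-221-3p was at 0.13 with TMM, 0.16 with known miRNA tags alone and 0.018 with all rows. miR-31-5p was at 0.53, 0.53 and 0.49 relative to the median in these fits. Without TMM, 2 of the 6 arms, miR-221-5p and miR-31-5p, were higher in every ET1 library than in any untreated library, beside 20.9% of all tested miRNAs.

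The authors' deposited table was made from counts summed over the libraries of a group. It gave 5 of the 6 arms as higher with ET1 at a q-value under 0.05, beside 35% of its 1570 known miRNA rows. Those rows include miRNAs that failed the filter on low counts, which all 6 arms passed. The share among the 616 tested miRNAs was not computed, so 35% is not a like comparison. At any q-value, 1192 of the 1570 rows were listed as higher. In the authors' deposited table the log2 ratio was 0.55 for miR-222-3p, 0.46 for miR-221-3p, 0.88 for miR-31-5p, 0.52 for miR-221-5p, 0.82 for miR-31-3p and −0.074 for miR-222-5p. The q-value it listed was 0 for miR-222-3p and miR-31-5p, 3.02e-215 for miR-221-3p and 0.185 for miR-222-5p. The mean RPM (reads scaled to all tags) in the authors' deposited table was lower with ET1 for 4 of the 6 arms, at 1202 against 1247 for miR-222-3p and 306 against 339 for miR-221-3p. The deposited ratio was positive for 3 of these 4 arms. Over the 616 tested miRNAs the median log2 ratio of the mean RPM in the authors' deposited table was −0.23, beside −0.053 for miR-222-3p and −0.15 for miR-221-3p. For miR-31-5p it was higher, at 265 against 218. The log2 ratio of the summed counts was −0.15 for miR-222-3p and −0.24 for miR-221-3p. This ratio minus the one in the authors' deposited table was −0.70 for each of the 6 arms. The median of the authors' deposited log2 ratios over the 616 tested miRNAs was 0.38. Summed counts carry no term for the spread between libraries.

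**Figure D5:**
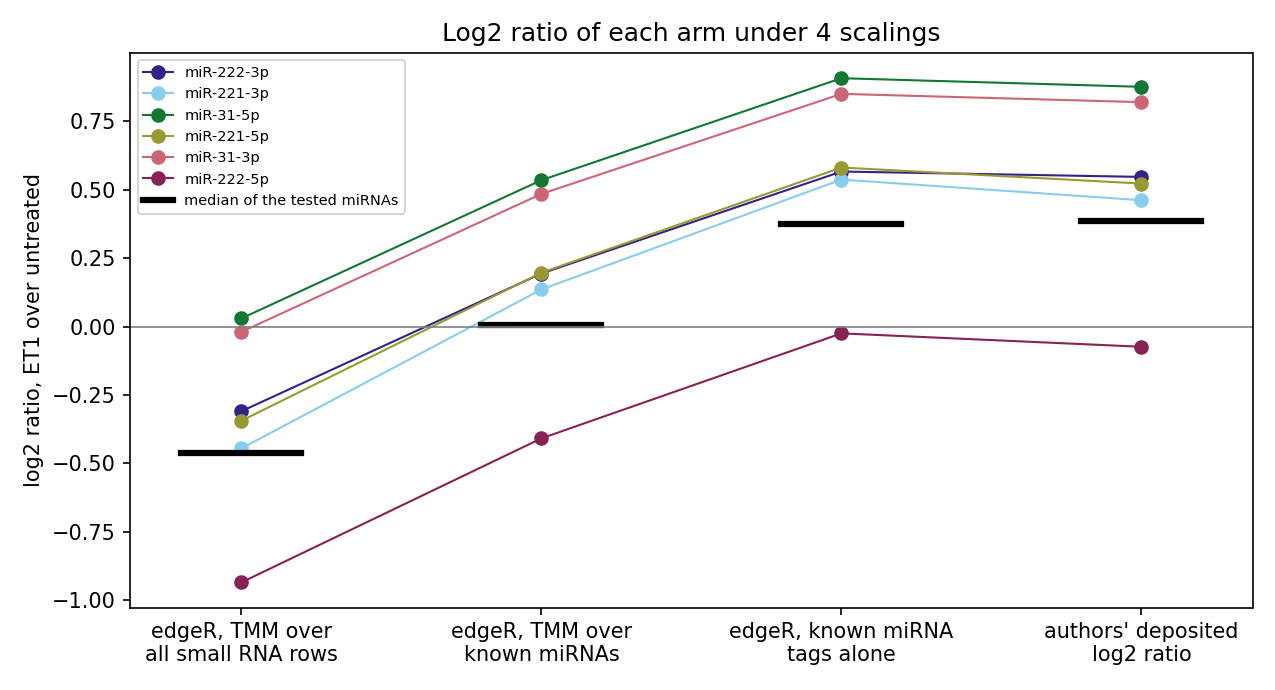
Log2 ratio of ET1 over untreated for each arm (coloured points) in edgeR with 3 scalings and in the authors' deposited table. Black bars are the median of the tested miRNAs under each, 617 in the fit with all small RNA rows and 616 in the others. The arms move with the median: miR-222-3p runs from −0.31 to 0.57 while the median runs from −0.46 to 0.38.

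Further tags of these families were counted in rows of Rfam precursor families, which carry no arm. The row for microRNA mir-221, the family of both X-linked hairpins, held 16134, 14690 and 12744 tags in untreated libraries 1, 2 and 3 and 20605, 10060 and 12084 in ET1 libraries 1, 2 and 3. It made up 31.3% ± 1.76 of the tags of that row and the 4 arms together in untreated libraries and 33.4% ± 1.81 in ET1 libraries (n = 3 each). The row for microRNA mir-31 held 134 to 318 tags, or 4.51% ± 0.952 in untreated and 5.36% ± 1.5 in ET1 libraries. Scaled to known miRNA tags without TMM, the mir-221 row was at 1698 to 2042 CPM in untreated and 2296 to 4452 CPM in ET1 libraries. The row and its arms together were at 5760.4 to 6316 and 6531 to 13261 CPM, and the mir-31 row and its arms at 412 to 879 and 912 to 1336 CPM. On that scale the groups were separate, as they were for 20.9% of the tested miRNAs in that direction. After TMM scaling they overlapped, at 6483 to 7226 and 6046 to 11528 CPM for mir-221 with its arms and 505 to 1005 and 844 to 1162 CPM for mir-31 with its arms. Which tags went to these rows is not given in the sources used here. Its tags are not part of the levels given above.

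Other miRNAs of smooth muscle growth gave a frame for these values. A list of 16 miRNAs known for promoting growth or the synthetic state of smooth muscle, without the 6 arms, was positive for 4 and negative for 12 on the log2 scale. Over all 616 miRNAs, 311 were positive. The median of the list was −0.49, and none passed the test in either direction. After TMM the groups were separate for 1 of its miRNAs that was higher and 4 that were lower with ET1, where 23.5% of all tested miRNAs were separate in either direction. Its most abundant member, miR-92a-3p of the miR-17-92 cluster, was at 12110 ± 3912 CPM with ET1 and 21165 ± 6093 untreated (log2 fold change −0.81, edgeR adjusted p = 0.22). Of 16 tested miRNAs known for the contractile state or for restraining growth, 2 were positive and 14 negative, with a median of −0.88. None passed, and the most abundant, miR-34a-5p, was at −0.38 (edgeR adjusted p = 0.58). For 9 of these 16 the groups were separate after TMM, each lower with ET1, beside the same 23.5% of all tested miRNAs in either direction. A share for the lower direction alone was not computed.

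Of 12 miRNAs known to respond quickly to growth factors, activity or inflammation, 1 was positive and 11 were negative, with a median of −0.69 and none past the threshold. The most abundant, miR-22-3p, was at −0.65 (edgeR adjusted p = 0.26). For 5 of these 12 the groups were separate after TMM, each lower with ET1, where 23.5% of all tested miRNAs were separate in either direction. The share of all tested miRNAs that were separate and lower was not computed. The median over all 616 miRNAs was 0.0058, against 0.19 for the 6 arms. ET1 library 1, in which 5 of the 6 arms were highest, also held the highest summed level of germ cell markers, 4912 CPM, where the other libraries held 509 to 2045 CPM. Of those markers, miR-871-3p, which is X-linked and known from the testis, was the most abundant, at 1921 ± 2244 CPM with ET1 and 418 ± 404 untreated. Of the 8 markers on that list 7 were tested, none passed, and none was at 0 in any library. Of the 7, 5 had a positive log2 fold change and 2 a negative one, so miR-871-3p does not stand for the whole list. The part of these cells in the values of the 6 arms was not tested.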

How the data were processed

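Small RNA sequencing followed the BGI protocol, per the labels' protocols, and the submitters' processing notes name Bowtie2 and mm10. The authors deposited raw tag counts, and beside them values headed TPM that are, from the values, an RPM over all rows. A second deposited table holds summed counts, mean RPM, a log2 ratio, p-values and q-values per small RNA. Its settings are not given in the sources used here.

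The counts of known miRNAs went into edgeR 4.0.16 under R 4.3.3 (TMM, default filter, robust quasi-likelihood fit, group as the only term, two-sided, Benjamini-Hochberg over 616 miRNAs, threshold 0.05), checked on simulated counts. Intervals of fold changes are 95%. Ratios within a library were compared by exact permutation over the libraries. DESeq2 1.42.0 and limma 3.58.1 (voom) were alternatives, with other scalings, filters, a covariate, a replicate block and each library left out. Log2 CPM used a prior count of 2.

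Library depth was 18127265 to 20895432 tags. The 4 rows of exon, intron, intergenic and repeat totals (44.3% to 61.4% of tags) entered no fit.

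The arms, and the lists of other miRNAs, were chosen with earlier results of these data known. Named were the 6 arms, the most abundant and any passing miRNA of the smooth muscle and stimulus lists, the nearest in pattern (5 to miR-222-3p and 3 to miR-31-5p), neighbours in rank and seed sharers. Of the cell marker lists, the passing miRNAs, the leading germ cell and red cell miRNAs and the markers that reached 0 tags are named. The leukocyte marker with a positive value is named as well, and the other leading markers are left out.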

Additional observations from a re-analysis of the deposited data

How the results depend on the processing

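None of the 89 values of the 6 arms under the alternatives passed the threshold, and 9 had the other sign. With all named small RNA rows in one fit, miR-221-3p was at −0.44, miR-221-5p at −0.34, miR-222-3p at −0.31 and miR-31-3p at −0.020, and with the known miRNA share as a covariate miR-222-5p was at 0.20, miR-221-3p at 1.32 and miR-221-5p at 0.87. With 1 library left out, miR-221-3p ran from −0.38 to 0.38, miR-221-5p from −0.073 to 0.32, miR-222-3p from −0.14 to 0.34, miR-222-5p from −0.57 to −0.11, miR-31-5p from 0.34 to 0.90 and miR-31-3p from 0.12 to 1.13. miR-222-5p gave no value with a minimum of 10 CPM in 3 libraries.

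Of all 616 miRNAs, 11 passed with all libraries (8 higher and 3 lower), 41 with library sizes alone (38 higher and 3 lower) and 39 in DESeq2 (24 and 15). Without a filter 37 of 1368 passed (22 and 15). With all rows in one fit 0 of 617 passed, and with the miRNA share as a covariate 0 of 616 (116 and 39 at an unadjusted edgeR p under 0.05). In the fit with all rows, p-values were adjusted over every small RNA row tested, not over the 617 miRNAs alone. With 1 library left out, 2 to 30 passed of the 631 to 677 tested. The lowest was without ET1 library 3 and the highest without ET1 library 1, with 5 without untreated library 2 and 25 without untreated library 3. Library sizes alone put the median at 0.37. The replicate block gave 21 calls and none among the 6 arms. Deviations of same-numbered libraries correlated at 0.28, 0.060 and 0.25 over miRNAs. Each library correlated best with its own number, a hint from the data and not the design. The labels do not say that a number marks a shared culture, so the numbers were not taken as pairing the libraries.

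With 1 library left out, the 3p share of miR-221 differed between groups by −0.338 to 0.0962 percentage points (−0.136 with all 6), that of miR-222 by 0.0173 to 0.0714, that of miR-31 by −0.175 to 0.200, and the ratio of miR-222-3p to miR-221-3p by −0.745 to 0.873. On the log2 scale that ratio differed by 0.047 in place of −0.0516. The share of the 6 arms differed by 0.249 points of known miRNA tags (0.108 without ET1 library 1 to 0.358 without ET1 library 2) and by −0.0030 points of all tags. With the Rfam rows, an alternative chosen after seeing the data, it was 0.370 and the groups were separate, at 0.617% to 0.719% and 0.744% to 1.46%. For other sign changes the cause was not tested. Exact tests with 3 libraries against 3 cannot go below 0.1, and passengers at 19 to 139 tags limit what their values can show.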

Other observations

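Families were compared only where the name of an Rfam precursor row matched the family named beside known miRNAs. Families without such a match, let-7 among them, were not ranked. Of the matched families, 38 had at least 10000 tags over the 6 libraries in their Rfam precursor row and member rows together. Among these 38 the mir-221 family had the largest percentage in the Rfam row, 32.2% (86317 tags, with 181685 in the 4 arms). The family of miR-132 and miR-212, miRNAs induced by neuronal activity and growth factors, came next at 30.7%, followed by mir-877 at 18.4%, mir-23 at 17.8%, mir-155 at 16.2% and mir-27 at 12.1%. The mir-31 family was the 9th at 4.81%, and the median over the 38 matched families was 0.199%. The pooled tags of all 6 libraries were used, members were matched by the family named beside each miRNA in the table, and no test was made. Tags left in such rows enter none of the arm levels.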
